A study of Mus musculus with 42 samples.

Results

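Liver RNA from male, wild-type C3HeB/FeJ mice was compared between the arrays numbered 5 to 8 and the arrays numbered 1 to 4 within the groups fed a high-fat diet (HFD) for 7 or 14 days. The members were chosen by the replicate number in each title: 8 arrays of replicates 5-8 (4 at 7 days, 4 at 14 days) against 8 arrays of replicates 1-4 (4 at 7 days, 4 at 14 days), which is 16 of the 42 arrays of the series. All of these mice ate HFD and were single housed and random fed; they were 15 weeks old at 7 days and 16 weeks old at 14 days, and so diet and age were the same in both sets of a day. A further 8 HFD arrays at 21 days (17 weeks old, replicates 5-8 against 1-4) and 18 arrays of low-fat-fed controls aged 15 to 17 weeks are given beside the results where they bear on them. The labels do not say what set arrays 5-8 apart from arrays 1-4. They name no animal for an array either, so a p-value here speaks of array-to-array spread, which may in part be technical. Titles of the control and 21-day arrays carry the word reanalysis and those of the 7-day and 14-day arrays do not, so both sets compared here lie on the same side of that word.

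Malat1 is a long noncoding RNA kept in the nucleus, where it gathers in nuclear speckles, the compartments that store splicing factors. Splicing factors of the SR family (named for stretches of serine and arginine) are phosphorylated by the CLK kinases, and cyclins L1 and L2 pair with kinases of the same speckles. Many of these genes keep part of their own transcripts in the nucleus with an intron left in, or splice in an exon that marks the transcript for decay. Hepatocyte liver RNA is otherwise dominated by cytoplasmic messages for plasma proteins and metabolic enzymes.

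Levels are log2 array signals, on which a difference of 1 is a 2-fold change. The 95th percentile of the signals of 929 olfactory receptor genes, 2.96, served as a background level. Of 17989 genes tested, 63.4% lay above it on average. Array medians over all probe sets were 3.14 to 3.24 in replicates 5-8 and 3.08 to 3.15 in replicates 1-4. The first principal component held 26.9% of the variance among the 16 arrays, with scores of -6.27 to 27.34 in replicates 5-8 and -16.48 to -7.23 in replicates 1-4. The 7-day replicate 6 had the score of -6.27 and lay nearest to replicates 1-4.

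Over both days, 834 genes were higher in replicates 5-8 than in replicates 1-4 (4.64% of genes tested) and 1157 were lower (6.43%), at a limma adjusted p under 0.05 with day as a covariate. The median log2 difference was 0.40 among the called rises and -0.40 among the called falls. At least 2-fold changes were more often rises, with 27 called genes higher and 6 lower. For 155 genes (0.862%) every one of the 8 arrays of replicates 5-8 lay above all 8 of replicates 1-4, and for 143 genes (0.795%) every one lay below. The median difference over all genes was 0.00. Centring each array on its median moved the share of lower genes among the calls to 76.8%, against 58.1% without it. A fit of all 42 arrays together called 653 genes, 649 of them among the 1991 here and in the same direction, and leaving out the 5 arrays richest in pancreatic transcripts (mean log2 level of the acinar markers over 6) left 539. Without the 7-day replicate 6 there were 2512.

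The share called changed with the level of the gene. Among the 6584 genes below background 1.66% were called higher and 0.516% lower. Between log2 levels of 5 and 6 these shares were 7.23% and 13.6%, and between 7 and 8 they were 11.2% and 15.6%.

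Malat1 showed the largest rise. At 7 days it stood at 9.43, 8.92, 9.06 and 8.79 in replicates 5-8, against 6.78, 6.60, 7.01 and 6.79 in replicates 1-4. At 14 days its levels were 8.91, 8.61, 9.21 and 9.11 in replicates 5-8, against 5.80, 5.90, 5.76 and 7.33 in replicates 1-4. Every array of replicates 5-8 lay more than 1 log2 unit above the highest of replicates 1-4, and the 14-day replicate 4 was the highest of its set. The mean was 9.0 ± 0.26 in replicates 5-8 and 6.49 ± 0.60 in replicates 1-4 (SD, n = 8 each), a difference of 2.51 ± 0.185 (SE, 5.70-fold, adjusted p = 1.11e-07). Of the 11 nuclear-retained and other long noncoding RNAs measured, 4 rose and 0 fell, with a median difference of 0.14: beside Malat1 these were Dleu2 (0.30), Mir17hg (0.29) and Norad (0.22). Apart from Malat1 these calls were lost on leaving out single arrays: any of 10 of the 16 for Dleu2, 9 for Mir17hg and 3 for Norad. Dleu2 and Mir17hg had mean levels below background in both sets.

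Of 16 kinases and cyclins that act on or beside SR proteins, 5 rose and 2 fell. Clk1, a kinase of SR proteins, stood at 8.04, 7.38, 7.92 and 7.91 in replicates 5-8 and 6.57, 6.67, 6.72 and 5.76 in replicates 1-4 at 7 days. At 14 days Clk1 was at 7.26, 7.94, 7.61 and 8.29 in replicates 5-8 and 5.87, 6.12, 6.11 and 6.31 in replicates 1-4. No array of the 2 sets overlapped, and the difference was 1.53 ± 0.15 (SE, 2.88-fold, adjusted p = 3.53e-06). Ccnl2, which encodes cyclin L2, was at 7.38, 7.15, 6.82 and 6.85 in replicates 5-8 and 5.69, 5.64, 6.02 and 5.42 in replicates 1-4 at 7 days. At 14 days the Ccnl2 levels were 6.98, 6.78, 7.08 and 7.37 in replicates 5-8 and 5.22, 5.28, 5.30 and 5.83 in replicates 1-4. The Ccnl2 sets did not overlap either, with a difference of 1.5 ± 0.12 (SE, adjusted p = 2.63e-07).

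Ccnl1, the gene of cyclin L1, was higher by 1.25 ± 0.13 (SE, adjusted p = 3.53e-06), Clk4 by 1.13 ± 0.12 (adjusted p = 8.32e-06) and Prpf4b, a spliceosomal kinase, by 0.73. Hipk2 (-0.57) and Dyrk1b (-0.55) were the members that fell. Clk3 (0.11), Srpk1 (0.07), Srpk2 (-0.03), Cdk12 (-0.03) and Cdk13 (-0.28) did not pass, and the median of the list was 0.02.

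**Figure D1:**
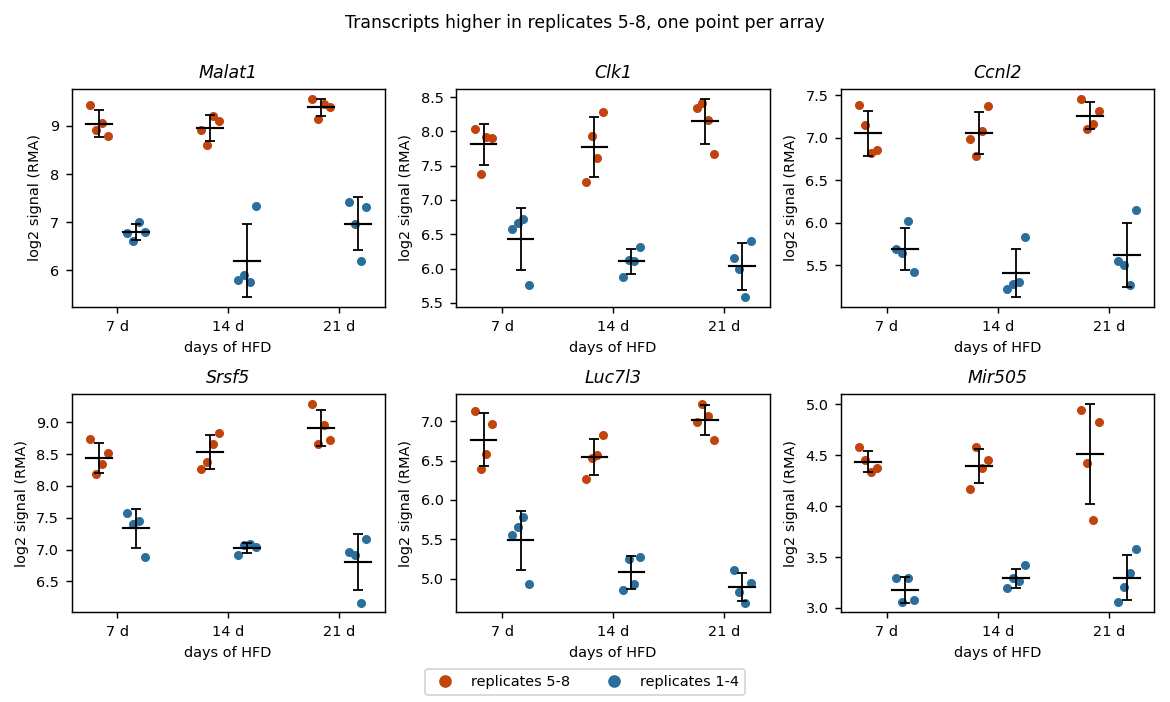
Log2 signal of Malat1, Clk1, Ccnl2, Srsf5, Luc7l3 and Mir505 on each HFD array (y axis) by days of HFD (x axis); points are arrays, replicates 5-8 to the left of replicates 1-4, and bars are the mean and SD of 4 arrays. In all 6 panels the points of replicates 5-8 lie above those of replicates 1-4 at 7 and at 14 days.

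Of 10 SR proteins measured, 6 were higher and 0 were lower, and the median difference was 0.40. Srsf5 had the largest, with 8.73, 8.18, 8.34 and 8.52 in replicates 5-8 and 7.58, 7.41, 7.45 and 6.89 in replicates 1-4 at 7 days. At 14 days Srsf5 was at 8.26, 8.38, 8.66 and 8.83 in replicates 5-8 and 6.91, 7.07, 7.09 and 7.04 in replicates 1-4. Its difference was 1.3 ± 0.11 (SE, adjusted p = 7.67e-07). Srsf6 (0.72), Tra2b (0.60), Srsf2 (0.57), Srsf11 (0.52) and Tra2a (0.28) also rose, whereas Srsf12 (-0.04), Srsf4 (-0.08), Srsf3 (-0.09) and Srsf9 (-0.26) did not pass. Tra2a lost its call when any of 3 arrays was left out. By array, the mean over the 10 genes was 6.11 to 6.40 in replicates 5-8 and 5.74 to 6.03 in replicates 1-4, with no overlap.

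Among 42 SR-related and speckle proteins, 23 were higher and 1 was lower, with a median difference of 0.36. The leading members were Pnisr, a serine- and arginine-rich protein of speckles (1.40), Luc7l3 and Luc7l2, relatives of a yeast U1 particle protein (1.37 and 1.13), Ttc14 (0.99) and Prpf38b (0.92). Luc7l3 stood at 7.13, 6.39, 6.58 and 6.96 in replicates 5-8 and 5.56, 5.66, 5.79 and 4.94 in replicates 1-4 at 7 days. At 14 days Luc7l3 was at 6.26, 6.53, 6.57 and 6.82 in replicates 5-8 and 4.86, 5.25, 4.94 and 5.28 in replicates 1-4. Neither day overlapped between the sets for Luc7l3. Without overlap in both days, 15 of the 42 members lay higher and 1 lower, against 230 and 227 of all 17989 genes. Rnps1, a component of the exon junction complex, was the 1 member that fell (-0.53). Son (0.36, adjusted p = 0.0555), the scaffold of speckles, did not pass. Srrm2 (0.11) did not pass either. Nktr (0.34, adjusted p = 0.0306) passed here and lost the call when any of 8 arrays was left out. With all 42 arrays fitted together 14 of these genes were called higher, and leaving out the 5 arrays richest in pancreatic transcripts left 13.

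Genes known for regulated intron retention or poison exons showed the highest share of the lists described: 17 of 23 were higher (73.9%) and 0 were lower, with a median of 0.50. Taf1d, a subunit of the RNA polymerase I factor SL1, had 5.50, 4.58, 3.97 and 4.58 in replicates 5-8 and 3.0, 3.10, 3.65 and 3.34 in replicates 1-4 at 7 days. At 14 days Taf1d was at 4.91, 4.75, 4.80 and 5.41 in replicates 5-8 and 3.23, 3.31, 2.56 and 3.64 in replicates 1-4. Taf1d differed by 1.58 ± 0.18 (SE, adjusted p = 2.09e-05), and its sets did not overlap.

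Wsb1, a substrate adaptor of a ubiquitin ligase, was higher by 1.34, Ogt, the enzyme that adds O-linked N-acetylglucosamine to proteins, by 0.97 and Ddx17, an RNA helicase, by 0.97. Ogt averaged 6.55 ± 0.14 in replicates 5-8 and 5.58 ± 0.21 in replicates 1-4 (SD, n = 8 each), which differed by 0.97 ± 0.09 (SE, adjusted p = 1.56e-06). Fubp1 (0.91), Hnrnph1 (0.88), Mdm4 (0.79), Ddx5 (0.77) and Smg1 (0.50) belonged to the same list and also rose. Cirbp (0.21), Rbm3 (0.17), Ddx39b (-0.19) and Sf1 (-0.25) did not pass. Fitting 42 arrays together called 14 of the 23 higher, and the fit without the 5 arrays richest in pancreatic transcripts called 11. The array measures signal over the whole transcript with no separate intron probe in this table, so spliced and unspliced forms were not told apart.

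Of 37 core spliceosome proteins, 3 were higher (8.11%) and 8 were lower (21.6%), with a median of -0.05. Among all genes at levels of 5 to 6, 7.23% were higher and 13.6% lower. Sf3a1, a subunit of the U2 particle, was at 3.65, 4.45, 3.58, 3.59, 3.81, 3.40, 4.08 and 3.58 in replicates 5-8 (7 days first) and 4.47, 4.52, 4.48, 4.34, 4.17, 4.35, 4.37 and 4.31 in replicates 1-4. Only the 7-day replicate 6 of replicates 5-8 reached the levels of replicates 1-4. Sf3a1 (-0.61), Sf3b4 (-0.55), Snrpc (-0.55), Snrpa (-0.49) and Snrpb (-0.47) fell, while Plrg1 (0.41), Sf3b1 (0.37) and Snrpd3 (0.27) rose. Sf3b4 lost its call when any of 3 arrays was left out, and Sf3b1 without the 14-day replicate 1. Of 17 heterogeneous nuclear ribonucleoproteins, Hnrnpa2b1 rose (0.51), Pcbp1 (-0.50) and Hnrnpul1 (-0.46) fell, and the median was 0.10. Hnrnph1, which also rose, was counted with the intron-retention genes and is not among these 17. The fit of 42 arrays called 3 of the core spliceosome genes lower, and that without the 5 arrays richest in pancreatic transcripts called 2.

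**Figure D2:**
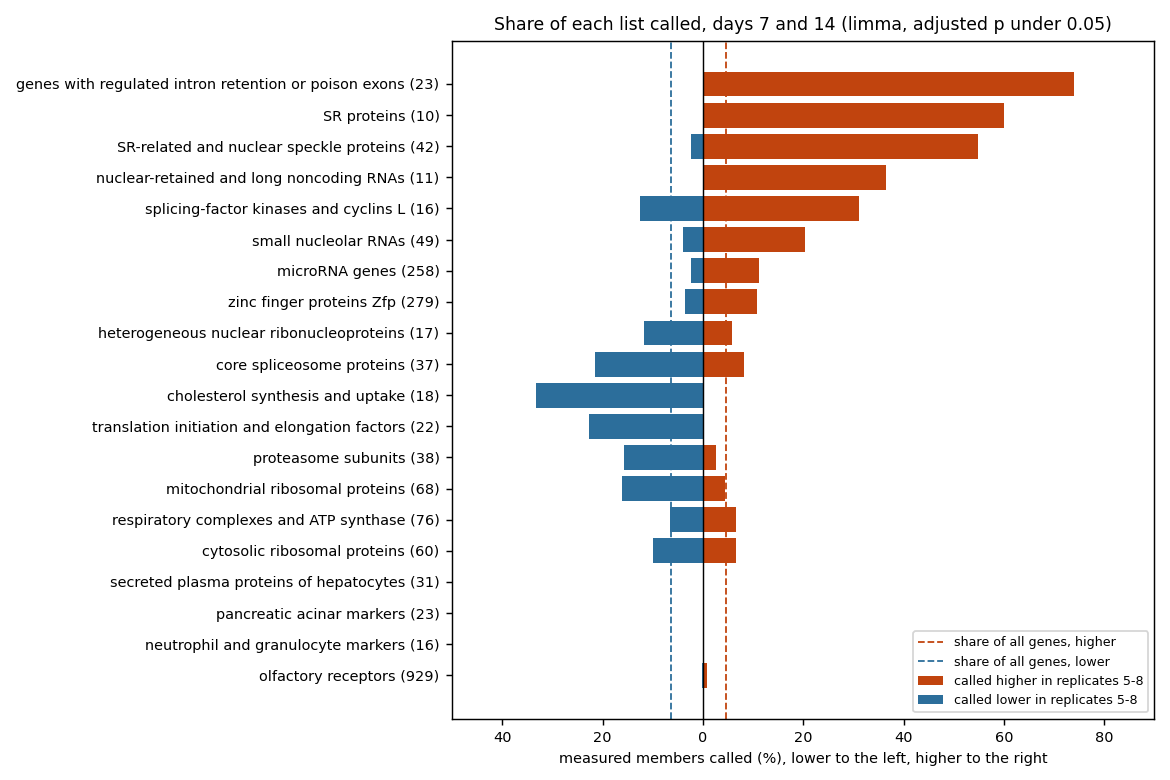
Share of the measured members of 20 gene lists (number measured in brackets) called higher (right of 0) or lower (left of 0) in replicates 5-8 over days 7 and 14, in percent; dashed lines are the shares among all 17989 genes. The intron-retention list reaches 73.9% higher, whereas plasma proteins, pancreatic acinar and neutrophil markers show no bar.

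MicroRNA and small nucleolar RNA genes had more calls higher than lower, as did genes below background in general (1.66% higher, 0.516% lower). The probe sets of microRNA genes record RNA over the hairpin locus, not the mature strand alone. Of 258 named microRNA genes, 29 were higher (11.2%) and 6 were lower (2.33%), against 4.64% and 6.43% of all genes tested. Their median was 0.06, and 70 of the 258 lay above background. Mir505, Mir199a-1 and Mir15a were among the 4 largest rises. Their mature strands, read from RefSeq on GRCm38.p6 and shown 5′ to 3′ as the products of these hairpins, have the seed (bases 2 to 8) in capitals, and all 6 seeds differ. The loci are chrX:60394416-60394473, chr9:21496498-21496559 and chr14:61632038-61632096, all on the minus strand.
mmu-miR-505-5p: gGGAGCCAggaaguauugauguu
mmu-miR-505-3p: cGUCAACAcuugcugguuuucu
mmu-miR-199a-5p: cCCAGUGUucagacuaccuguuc
mmu-miR-199a-3p: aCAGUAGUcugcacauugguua
mmu-miR-15a-5p: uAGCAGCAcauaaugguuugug
mmu-miR-15a-3p: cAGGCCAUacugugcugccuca

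The Mir505 locus was at 4.58, 4.45, 4.34 and 4.38 in replicates 5-8 and 3.29, 3.06, 3.29 and 3.08 in replicates 1-4 at 7 days. At 14 days Mir505 stood at 4.17, 4.58, 4.38 and 4.45 in replicates 5-8 and 3.2, 3.29, 3.26 and 3.42 in replicates 1-4. Its sets were far apart for their spread, 4.42 ± 0.13 in replicates 5-8 against 3.24 ± 0.12 in replicates 1-4 (SD, n = 8 each), with a difference of 1.18 ± 0.07 (SE, adjusted p = 1.29e-08). Mir199a-1 (0.99) and Mir15a (0.77) did not overlap between the sets either, whereas Mir122 (0.81), known as the most abundant microRNA of liver, did. Mir15a and Mir122 lay below background in replicates 1-4 on average. Mir99b (-0.46), Mir375 (-0.43), Mir673 (-0.36) and Mir30d (-0.34) fell, calls that were lost without any of 10 arrays for Mir30d and any of 3 for Mir673. The count of 29 was less firm than the individual leaders: it was 17 without the 7-day replicate 3 or replicate 8, 18 without the 14-day replicate 1 or replicate 3 and 19 without the 7-day replicate 2 or the 14-day replicate 6. It was 6 with all 42 arrays fitted together, and the fit without the 5 arrays richest in pancreatic transcripts left 9.

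Small nucleolar RNAs guide the chemical modification of other RNAs and are mostly cut from introns of host genes. Of 49 measured, 10 were higher (20.4%) and 2 were lower (4.08%), with a median of 0.14, and 28 lay above background. All genes at levels of 2.96 to 4 had 3.95% higher and 4.39% lower. Snord14e was at 6.16, 5.46, 4.71 and 4.86 in replicates 5-8 and 3.78, 4.26, 4.09 and 3.45 in replicates 1-4 at 7 days. Its 14-day levels were 5.07, 4.48, 4.81 and 5.25 in replicates 5-8 and 3.33, 3.26, 3.52 and 4.23 in replicates 1-4. Snord14e differed by 1.36 ± 0.19 (SE, adjusted p = 0.000138) with no overlap, while Hspa8, the chaperone gene around it, differed by -0.09 ± 0.09 (adjusted p = 0.596). Scarna17 (1.06), Snord42b (0.83) and Snord42a (0.67) rose as well, and Rpl23a, the ribosomal protein gene around both Snord42 genes, differed by -0.14. In replicates 1-4 Snord42b averaged 2.46 and Snord42a 2.79, below background, so the sizes of their rises are not well determined.

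Over 113 small RNA genes that lie within 1 measured protein-coding gene, 22 were higher, and the surrounding gene was higher for 4 of these and lower for 0. Among those surrounding genes Ncl was counted for both Snord82 and Gm24148, and Rpl10 and Zranb2 were the others. The median difference was 0.07 for the small RNA genes and -0.02 for the genes around them. Of these 113, 37 lay above background, with 8 higher and 2 lower. The table used to place them gives no strand for most small nucleolar RNAs, so the orientation within the host was not tested. The fit of 42 arrays called 6 of the small nucleolar RNAs higher and the fit without the 5 arrays richest in pancreatic transcripts called 3.

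The opposite was seen for a few structured RNAs made outside the microRNA and snoRNA pathways, which were picked out after their values were seen. The 5S ribosomal RNA locus n-R5s136 was at 10.42, 10.88, 9.53, 9.28, 9.91, 11.28, 9.81 and 10.53 in replicates 5-8 (7 days first) and 11.15, 11.16, 11.52, 12.32, 11.61, 11.27, 11.63 and 12.35 in replicates 1-4. It averaged 10.21 ± 0.69 in replicates 5-8 and 11.63 ± 0.48 in replicates 1-4 (SD, n = 8 each), a difference of -1.42 ± 0.25 (SE, adjusted p = 0.00103). The 14-day replicate 6 overlapped with replicates 1-4.

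Rprl2, an RNA of the RNase P type, which trims transfer RNA precursors, was at 5.60 to 6.08 in replicates 5-8 and 6.12 to 7.73 in replicates 1-4, with no overlap and a difference of -0.94 ± 0.18 (SE, adjusted p = 0.0026). Both Y RNAs, small RNAs bound by the Ro protein, fell: Rny3 (-0.47, adjusted p = 0.0071) and Rny1 (-0.42, adjusted p = 0.0294). Rny1 averaged 2.55 in replicates 5-8, below background, and 2.97 in replicates 1-4, at about background. The size of its fall is therefore not well determined. Rmrp (-0.52, adjusted p = 0.262) and the telomerase RNA Terc (-0.20, adjusted p = 0.347) did not pass. Snord33, a small nucleolar RNA, fell by 1.24 on the log2 scale: it was at 4.99 to 5.97 in replicates 5-8 and 5.62 to 8.06 in replicates 1-4, and the 7-day replicate 4 had the highest value.

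Among genes other than small RNA genes, predicted genes and large receptor families, the 15 largest falls had many functions. Nabp2, a single-stranded DNA binding protein, was at 6.13, 6.62, 6.31 and 6.08 in replicates 5-8 and 7.21, 7.31, 7.33 and 7.22 in replicates 1-4 at 7 days. At 14 days Nabp2 was at 6.41, 6.27, 6.28 and 6.22 in replicates 5-8 and 7.11, 6.97, 7.13 and 7.24 in replicates 1-4. The Nabp2 difference was -0.90 ± 0.08 (SE, adjusted p = 7.67e-07) with no overlap. Ube2n, an enzyme that builds lysine-63 ubiquitin chains, differed by -0.93 ± 0.09 (adjusted p = 3.1e-06), also with no overlap. Prr23a1 (-1.26), Zfp395 (-1.03), Nectin1 (-1.01), Wdr83os (-0.97), Abhd2 (-0.96), Lrg1 (-0.95), C2cd4b (-0.94), Wbp2 (-0.91), Ubl7 (-0.86), Slco2a1 (-0.86), Acsf2 (-0.85), Ces2g (-0.85) and Tapbp (-0.85) were the others. Nectin1, Abhd2, Slco2a1 and Tapbp were not called with all 42 arrays fitted together, nor without the acinar-rich arrays, and Lrg1 was not called without the acinar-rich arrays (adjusted p = 0.167). The olfactory receptor gene Olfr767, passed over with its family and named after its value was seen, differed by -1.37 (adjusted p = 0.021).

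**Figure D3:**
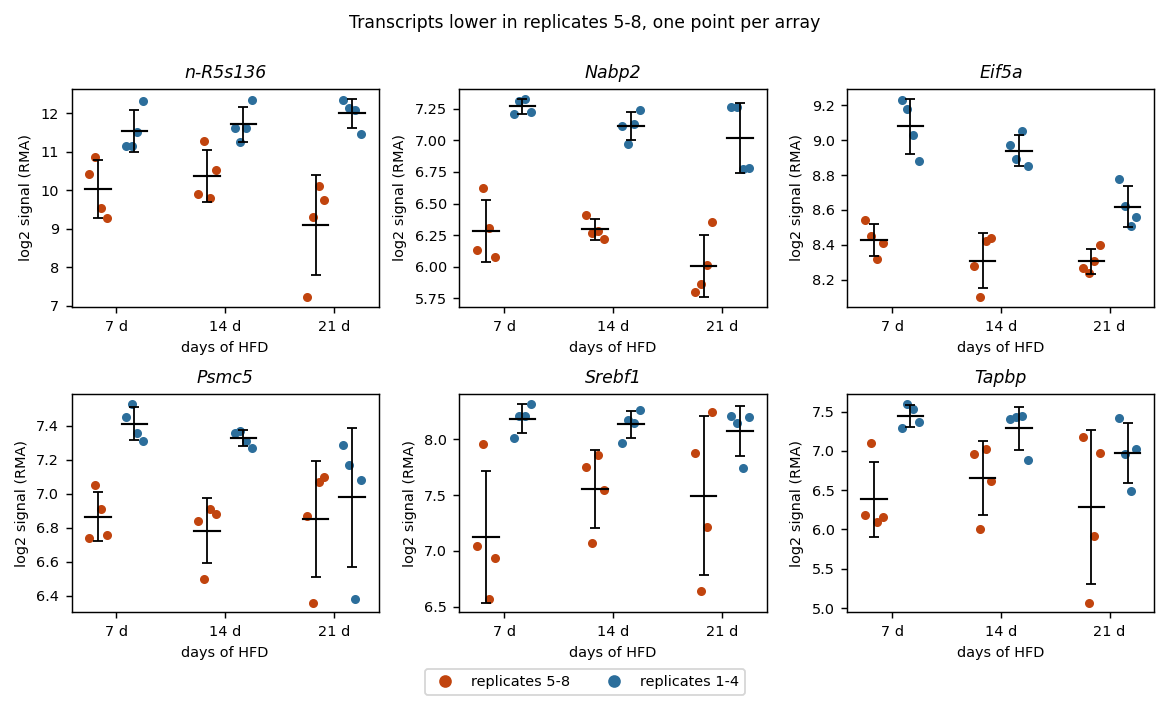
Log2 signal of n-R5s136, Nabp2, Eif5a, Psmc5, Srebf1 and Tapbp on each HFD array (y axis) by days of HFD (x axis); points are arrays, replicates 5-8 to the left of replicates 1-4, and bars are the mean and SD of 4 arrays. Nabp2, Eif5a, Psmc5 and Srebf1 do not overlap at 7 or 14 days. In Tapbp the 7-day replicate 6 sits at 7.10, above 6.09 to 6.18 for the other replicates 5-8 and below 7.29 to 7.60 for replicates 1-4. At 14 days Tapbp overlaps, with replicates 5 and 7 at 6.96 and 7.03 and replicate 4 at 6.88.

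Of 22 translation initiation and elongation factors, 5 were lower (22.7%) and 0 were higher, with a median of -0.08. Among all genes at levels of 7 to 8, 15.6% were lower and 11.2% higher. Eif5a, a factor that helps ribosomes through stalling sequences, averaged 8.37 ± 0.13 in replicates 5-8 and 9.01 ± 0.14 in replicates 1-4 (SD, n = 8 each), a difference of -0.64 ± 0.07 (SE, adjusted p = 1.08e-05). Eif6 (-0.59), Pabpc1 (-0.41), Eif3b (-0.39) and Eif3d (-0.36) were the others, and Eef1a1 (0.01) and Eif4a1 (-0.01) did not pass. Eif3b lost its call when any of 10 arrays was left out. The count was 3 without any of the 7-day replicates 5, 7 and 8 or the 14-day replicates 2 and 6, and 2 in the fit of 42 arrays and without the 5 arrays richest in pancreatic transcripts.

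Of 38 proteasome subunits, 6 were lower (15.8%) and 1 was higher, with a median of -0.04. That share is close to the 15.6% lower among all genes at log2 levels of 7 to 8. The lower ones were led by 3 ATPases of the base, Psmc5 (-0.55), Psmc4 (-0.54) and Psmc1 (-0.49), and Psmd5, an assembly chaperone, was the higher one (0.36). Fitted with all 42 arrays, 3 were lower. Mitochondrial ribosomal proteins numbered 11 lower (16.2%) and 3 higher (4.41%) of 68, near the 15.5% and 8.03% of all genes at levels of 6 to 7, with Mrps2 (-0.50), Mrpl38 (-0.49) and Mrpl16 (-0.49) among the falls and Mrpl42 (0.51) leading the rises. Cytosolic ribosomal proteins numbered 6 lower (10%) and 4 higher (6.67%) of 60, against 15.6% and 11.2% of all genes at levels of 7 to 8: Rps14 (-0.57), Rpl28 (-0.55) and Rpl37a (-0.52) fell and Rps27l (0.65), Rps29 (0.57) and Rpl38 (0.44) rose.

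In sterol metabolism, 6 of 18 measured genes were lower (33.3%, against 10.3% of all genes at levels of 8 to 10) and 0 were higher, with a median of -0.11. Dhcr7, the enzyme of the last step to cholesterol, was at 7.22, 8.30, 7.05 and 7.40 in replicates 5-8 and 8.56, 8.64, 8.45 and 8.12 in replicates 1-4 at 7 days. At 14 days Dhcr7 was at 7.92, 7.13, 7.80 and 7.01 in replicates 5-8 and 8.42, 8.44, 8.11 and 7.66 in replicates 1-4. The 7-day replicate 6 and the 14-day replicates 5 and 7 of replicates 5-8 lay within the range of replicates 1-4, and the difference was -0.82 ± 0.17 (SE, adjusted p = 0.00454). Nsdhl (-0.71), Srebf2, the regulator of sterol synthesis (-0.47), Fdps (-0.44), Mvd (-0.43) and Fdft1 (-0.32) were the others. Hmgcs1 (0.26), Stard4 (0.26), Idi1 (0.16) and Insig1 (-0.01), which respond to the same regulator, did not pass. Fitting 42 arrays together called 2 lower, as did that without the 5 arrays richest in pancreatic transcripts.

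Srebf1, the regulator of fatty acid synthesis, was at 7.04, 7.96, 6.57 and 6.94 in replicates 5-8 and 8.01, 8.21, 8.21 and 8.32 in replicates 1-4 at 7 days. At 14 days Srebf1 was at 7.75, 7.07, 7.86 and 7.55 in replicates 5-8 and 7.97, 8.17, 8.15 and 8.26 in replicates 1-4. The sets did not overlap, although the 7-day replicate 6 and the 14-day replicate 7 came closest to replicates 1-4. The Srebf1 difference was -0.82 ± 0.16 (SE, adjusted p = 0.00232), and its adjusted p was 0.0625 with all 42 arrays fitted together. Among 25 lipogenesis and desaturation genes, Srebf1 and Elovl2 (-0.33) fell, and Mlxipl, the carbohydrate-responsive regulator (0.58), and Pnpla3 (0.70) rose. Elovl2 and Pnpla3 each lost the call when any of 11 arrays was left out.

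Lists of oxidative genes had medians near 0. Of 22 mitochondrial fatty acid oxidation genes, 5 were higher (22.7%) and 1 was lower (4.55%), with a median of 0.05. Over all genes at levels of 8 to 10, 13.3% were higher and 10.3% lower. Acsm5 (0.51), Acadm (0.46), Eci1 (0.41) and Etfdh (0.38) rose and Etfb (-0.29) fell. Acadm, the medium-chain acyl-CoA dehydrogenase, averaged 10.56 ± 0.09 in replicates 5-8 and 10.10 ± 0.16 in replicates 1-4 (SD, n = 8 each), with no overlap and an adjusted p of 0.000355. Of 32 PPAR-alpha targets, 5 were higher (15.6%, against 11.2% of all genes at levels of 7 to 8) and 0 were lower, with a median of 0.07. Cd36, a fatty acid translocase, led them at 8.44, 7.30, 7.95, 7.38, 7.88, 7.50, 7.58 and 6.42 in replicates 5-8 (7 days first) and 7.53, 7.45, 5.75, 6.53, 6.37, 5.54, 6.56 and 5.30 in replicates 1-4. Those ranges overlapped, and the difference was 1.18 ± 0.27 (SE, adjusted p = 0.00745). Cyp4a14 (0.93, adjusted p = 0.0548), Plin2 (0.11), Ehhadh (0.12), Ppara (-0.06) and Pdk4 (-0.17) did not pass.

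Of 24 peroxisomal oxidation and biogenesis genes, 2 were higher (8.33%) and 3 were lower (12.5%), with a median of 0.00. All genes at levels of 8 to 10 had 13.3% higher and 10.3% lower. Of 76 respiratory chain and ATP synthase subunits, 5 were higher and 5 were lower (6.58% each). All genes at levels of 7 to 8 had 11.2% and 15.6%. Ndufs1, a subunit of complex I, rose by 0.63 ± 0.11 (SE, adjusted p = 0.000966), and Ndufb7, another subunit of the same complex, differed by -0.44 ± 0.09 (adjusted p = 0.00259). Of 20 tricarboxylic acid cycle genes, 5 were higher (25%) and 3 were lower (15%), against 13.3% and 10.3% of all genes at levels of 8 to 10. Sucla2 (0.45), Dld (0.43) and Pdha1 (0.39) were among the higher ones. The lower ones were Ogdh (-0.60), Sdhc (-0.36) and Dlst (-0.29). Leaving out any of 8 arrays ended the call of Ogdh, any of 11 that of Dlst and any of 4 that of Dld. Mt2, a metallothionein, was among the largest rises (1.87 ± 0.43, SE, adjusted p = 0.00802), but spread widely: 5.90 to 9.12 in replicates 5-8 and 4.31 to 6.09 in replicates 1-4. Its neighbour gene Mt1 did not pass (0.85, adjusted p = 0.11). The other largest rises among named genes were Cyp2d37-ps (1.83), Clec2d, a ligand of a natural killer cell receptor (1.61), Serpina4-ps1 (1.52), Cyp2d13 (1.51), Usp17ld (1.51) and Mtx3, a mitochondrial outer membrane protein (1.40). The 2 Cyp2d loci, the Serpina4 pseudogene and Usp17ld have close relatives in the genome, whose transcripts the same probes may pick up.

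Messages for abundant plasma proteins did not differ by the test. Of 31 measured, 0 were called in either direction by limma, and the median was -0.03. Alb, the gene of albumin, was at 13.22 to 13.61 in replicates 5-8 and 13.26 to 13.39 in replicates 1-4 (difference 0.10 ± 0.07, SE, adjusted p = 0.404). Apoa1 differed by -0.20 (adjusted p = 0.0603) and Apob by 0.35, and neither passed. By array the mean over the 31 genes was 11.37 to 11.81 in replicates 5-8 and 11.50 to 11.79 in replicates 1-4, ranges that overlapped. Pericentral genes had 0 higher and 1 lower of 16, Cyp1a2 (-0.77), and periportal genes 1 higher, Hsd17b13 (0.43), and 1 lower, Sox9 (-0.35), of 13. The pericentral share lower was 6.25%, against 15.6% of all genes at levels of 7 to 8. Periportal shares were 7.69% each, against 13.3% higher and 10.3% lower at levels of 8 to 10.

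In bulk tissue, fewer cells of a type and less RNA per cell cannot be told apart. T and NK cell markers (18 measured), neutrophil and granulocyte markers (16) and erythroid markers (8) had 0 called in either direction, with medians of -0.07, -0.01 and 0.06. Only 5 of the 18, 3 of the 16 and 5 of the 8 lay above background, which limits what the absence of calls can show. By array the neutrophil mean was 2.69 to 2.90 in replicates 5-8 and 2.70 to 2.84 in replicates 1-4, below background in both. Of 20 Kupffer cell and macrophage markers, Cd5l (0.53) and C1qc (0.32) rose and C1qb fell (-0.72), although C1qa (0.25, adjusted p = 0.111), which encodes the third chain of the same complement protein, did not pass. The Kupffer cell marker Clec4f (0.20) and the macrophage marker Adgre1 (0.12) did not pass. The mean over the 20 genes was 4.43 to 4.86 in replicates 5-8 and 4.43 to 4.70 in replicates 1-4. Of the 20, 10% rose and 5% fell, against 5.52% and 11.5% of all genes at levels of 4 to 5. Endothelial markers had 3 higher and 0 lower of 17, with Mrc1 (0.56) before Emcn and Fcgr2b. That is 17.6% higher, against 7.23% of all genes at levels of 5 to 6. All 3 lost the call without the acinar-rich arrays, and Fcgr2b when any of 9 arrays was left out. Stellate cell markers had 0 higher and 2 lower of 18, Cygb (-0.48) and Col1a1 (-0.36), which also lost the call without the acinar-rich arrays. The stellate share, 11.1% lower, is close to the 11.5% of all genes at levels of 4 to 5.

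Pancreatic acinar transcripts varied strongly between arrays of both sets. Cpa1, a digestive carboxypeptidase, was at 4.24, 4.88, 10.65, 7.97, 7.64, 6.58, 3.86 and 10.89 in replicates 5-8 (7 days first) and 9.65, 3.99, 6.15, 9.17, 3.92, 3.83, 10.12 and 7.06 in replicates 1-4. The mean over 23 acinar genes was 3.39 to 8.38 in replicates 5-8 and 3.33 to 6.95 in replicates 1-4, their median difference was 0.38, and 0 were called in either direction. With this mean as a covariate 1814 genes were called, 1780 of them as before and in the same direction. Malat1, Clk1, Ccnl2, Srsf5, Luc7l3 and Mir505 were called under each of the 26 alternatives run, the one without the acinar-rich arrays included.

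Stress genes had calls in both directions, though those of the immediate early list were all falls. Among 27 immediate early genes, 0 were higher and 3 were lower (11.1%). Of all genes, 4.39% were lower at levels of 2.96 to 4 and 11.5% at levels of 4 to 5. The list averaged 3.86 in replicates 5-8 and 3.97 in replicates 1-4, near the border of these ranges, so no excess over all genes is claimed. The lower genes were Jund (-0.70), Klf4 (-0.51) and Nr4a2 (-0.22), the last of which lost its call when any of 12 arrays was left out. Fos (-0.07), Egr1 (0.05) and Atf3 (-0.10) did not pass. At 21 days 6 of the 27 were lower and 0 higher, with a median of -0.44, and Fos differed by -0.80 (adjusted p = 0.00683). Heat shock genes had 2 of 13 higher (15.4%), Chordc1 (0.55) and Hspd1 (0.25), and 2 lower (15.4%), Bag3 (-0.68) and Cryab (-0.33). Over all genes at levels of 6 to 7, 8.03% were higher and 15.5% lower. At 21 days 5 heat shock genes were higher and 0 lower. Hspd1 lost its call when any of 10 arrays was left out. Of 21 genes of the unfolded protein and integrated stress responses, Dnajc3 rose (0.36) and Hyou1 (-0.78), Calr (-0.72) and Dnajb9 (-0.54) fell. That is 14.3% lower, near the 15.6% of all genes at levels of 7 to 8. Of 279 Zfp zinc finger genes, 30 were higher (10.8%) and 10 were lower (3.58%), with a median of 0.07. Zfp825 (0.85), Zfp971 (0.84), Zfp871 (0.74) and Zfp445 (0.73) were the largest. The Zfp count was 45 without the 7-day replicate 6, 9 in the fit of 42 arrays and 6 without the 5 arrays richest in pancreatic transcripts.

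Each day alone gave the same direction. At 7 days 199 genes were higher (1.11%) and 389 lower (2.16%), and 198 and 383 of these had the same sign at 14 days. At 14 days 180 were higher (1.0%) and 153 lower (0.851%), and 178 and 151 of these had the same sign at 7 days. The days shared 96 genes called higher and 76 called lower, with 0 called in opposite directions. The test of the difference between the days (limma, interaction term) called 0 genes, with 622 at an unadjusted p under 0.05 and a smallest adjusted p of 0.999. The 7-day and 14-day comparisons share no array.

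The number called within 1 day rested on single arrays. At 7 days the total of 588 was 1562 without the 7-day replicate 6, 924 without the 14-day replicate 6 and 182 to 258 on leaving out the 7-day replicates 1, 2, 3, 5, 7 or 8. At 14 days the total of 333 was 99 to 218 on leaving out the 14-day replicates 1, 2, 3, 6, 7 or 8. The fit of 42 arrays called 0 genes at 7 days and 5 at 14 days.

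**Figure D4:**
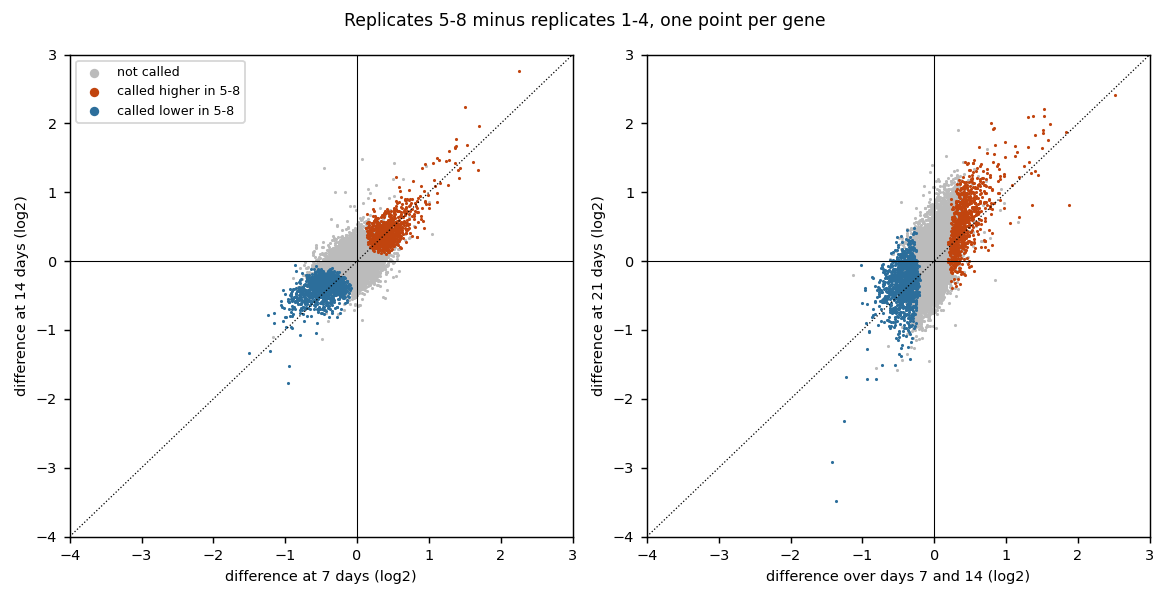
Log2 differences (replicates 5-8 minus replicates 1-4) of 17989 genes at 7 days (x axis) against 14 days (y axis), left, and over days 7 and 14 (x axis) against 21 days (y axis), right; coloured points are genes called over days 7 and 14 and the dotted line marks equal differences. The coloured points lie mostly in the same quadrant on both panels, and Malat1 is the rise farthest out.

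The 21-day arrays, which did not enter the fit over days 7 and 14, showed differences between their own replicates 5-8 and 1-4. The comparison and the lists were chosen with earlier results of the series known, so these arrays are not an independent check. There 1354 genes were higher (7.53%) and 914 were lower (5.08%), a total of 2268 that was 1334, 1308, 1362 and 1257 without the 21-day replicates 2, 3, 4 and 7, and 3429 in the fit of 42 arrays. Of the 834 genes higher over days 7 and 14, 782 (93.8%) had a positive difference at 21 days, where 45.5% of all genes did, and 457 (54.8%) were called higher. Of the 1157 lower genes, 1027 (88.8%) had a negative difference at 21 days, against 54.5% of all genes, and 251 (21.7%) were called lower. None of the called genes was called in the opposite direction. Seen from 21 days, 33.8% of its higher and 27.5% of its lower genes were called over days 7 and 14.

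Malat1 at 21 days was at 9.57, 9.15, 9.45 and 9.40 in replicates 5-8 and 7.41, 6.96, 6.20 and 7.32 in replicates 1-4, a difference of 2.42. Clk1 was at 8.34, 8.41, 8.17 and 7.67 in replicates 5-8 and 6.16, 5.99, 5.58 and 6.40 in replicates 1-4. Neither gene overlapped between the sets. The lists of splicing genes had larger medians at 21 days than at 7 or 14: 0.85 for regulated intron retention, where 19 of 23 were called higher, and 0.71 for SR-related and speckle proteins, where 23 of 42 were. Heterogeneous nuclear ribonucleoproteins, Hnrnph1 not counted, had 10 of 17 called higher at 21 days, against 1 of 17 over days 7 and 14. Whether these lists differed between the days was not tested.

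At 21 days, 6 microRNA genes were called higher and 20 lower, with a median of 0.00. Mir505 still differed by 1.22 there. The 5S RNA locus n-R5s136 was at 7.22, 9.30, 10.12 and 9.74 in replicates 5-8 and 12.34, 12.15, 12.08 and 11.46 in replicates 1-4 at 21 days, a difference of -2.91 (adjusted p = 0.00336). Rprl2 differed by -1.28, Rmrp by -1.58 (adjusted p = 0.00966) and Terc by -0.85 (adjusted p = 0.00502), which all passed at 21 days. Cholesterol genes had 1 higher and 0 lower at 21 days, and translation factors 3 higher and 0 lower, and whether these lists differ from days 7 and 14 was not tested.

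**Figure D5:**
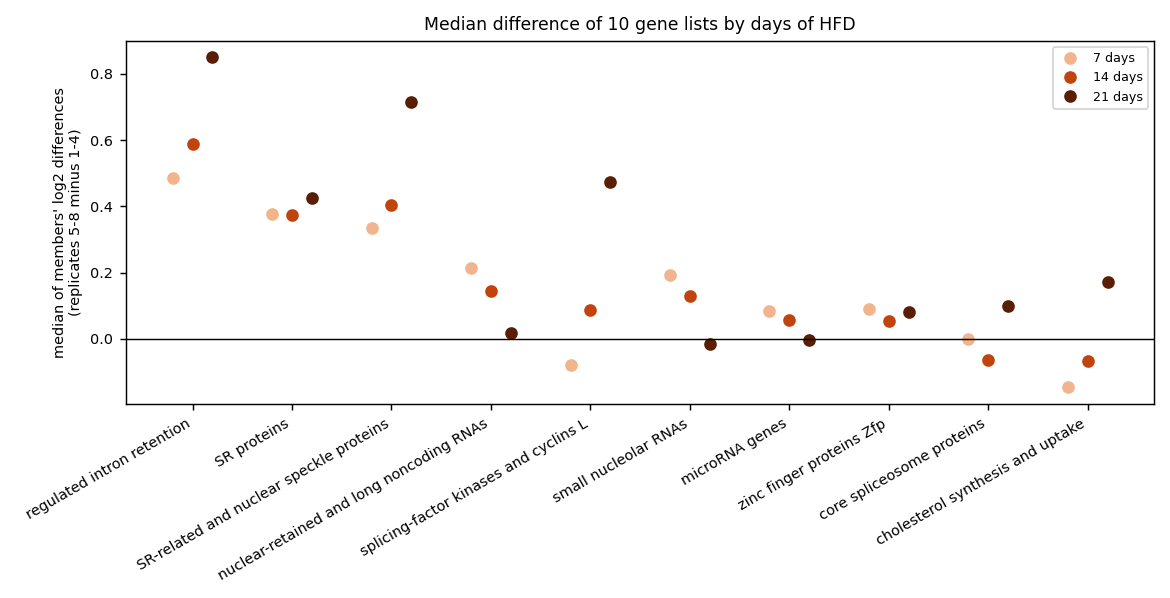
Median of the members' log2 differences (replicates 5-8 minus replicates 1-4, y axis) for 10 gene lists (x axis) at 7, 14 and 21 days of HFD; each point is the median over the measured members of a list. The intron-retention list has medians of 0.49, 0.59 and 0.85, and microRNA genes of 0.08, 0.06 and 0.00.

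The 18 control arrays, all on the low-fat diet, spread over much of the range of both sets. Malat1 ranged from 5.49 to 9.54 among controls with a median of 8.47, Clk1 from 5.72 to 8.50 (median 7.27) and Ccnl2 from 5.17 to 7.33 (median 6.56). For n-R5s136 the controls ran from 8.25 to 12.07 (median 10.45). The mean over the SR proteins was 5.68 to 6.39 in controls, against 6.11 to 6.40 in replicates 5-8 and 5.74 to 6.03 in replicates 1-4.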

How the data were processed

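RNA of mouse liver was hybridised to Affymetrix whole-transcript arrays, after extraction with miRNeasy columns and DNase, per the labels' protocols. The authors deposited log2 signals made with RMA in Affymetrix Expression Console 1.1, per the submitters' processing notes. RMA equalises probe signal distributions between arrays, so a change in total RNA is not visible. Whether all arrays were run through it together is not given in the labels.

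Each gene with 1 symbol was represented by its brightest probe set, giving 17989 genes. limma 3.58.1 (lmFit and eBayes, R 4.3.3) compared replicates 5-8 with replicates 1-4, with day as a covariate, and in each day, in the interaction with day and at 21 days. All adjusted p-values come from limma with Benjamini-Hochberg adjustment over all genes, and genes under 0.05 were called. Members and the 65 gene lists were chosen with earlier results of these data known, among them the split of Malat1 by replicate number. Named were the 15 largest rises and 15 largest falls, passing over small RNA genes, predicted or unnamed genes and 4 families (antigen receptor, olfactory receptor, vomeronasal receptor and major urinary protein genes), and up to 4 list members per direction, with further list members given as values. The structured RNAs and Olfr767 were named after their values were seen. 5 genes of the panel chosen for naming were not analysed here. On simulated data of 17989 genes, 71% of genes changed by 0.5 and 100% of those changed by 1 (log2) were recovered. Alternatives were other normalizations, filters, variance priors, array weights, all 42 arrays in 1 fit, an acinar covariate, a replicate block and leaving out each array. Leaving out the acinar-rich arrays was added after seeing the data.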

Additional observations from a re-analysis of the deposited data

Results flagged for a closer look

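In 12 of 234 groups of 4 arrays, 1 array lay far from the other 3 of its set and day by Dixon's test, and chance gives about 1 in 20 such groups. In replicates 1-4 at 14 days, replicate 4 had Malat1 at 7.33, with the others at 5.76 to 5.90, Ccnl2 at 5.83, with the others at 5.22 to 5.30, and Tapbp at 6.88, with the others at 7.40 to 7.44. In replicates 5-8 at 7 days, replicate 6 had Tapbp at 7.10, with the others at 6.09 to 6.18, and Sf3a1 at 4.45, with the others at 3.58 to 3.65. In replicates 1-4 at 7 days, Clk1 was 5.76 in replicate 4 (others 6.57 to 6.72) and Wsb1 was 5.19 in replicate 1 (others 4.83 to 4.88). At 21 days, in replicates 5-8, Taf1d was 4.83 in replicate 7 (others 5.29 to 5.36) and Sf3a1 was 3.28 in replicate 6 (others 3.91 to 4.02). At 21 days, in replicates 1-4, Rny3 was 9.01 in replicate 4 (others 9.72 to 9.85), Srebf1 was 7.74 in replicate 3 (others 8.15 to 8.21) and Jund was 7.24 in replicate 2 (others 6.74 to 6.78). Malat1, Clk1 and Ccnl2 stayed called when any 1 array was left out.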

How the results depend on the processing

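Over days 7 and 14 the count of 1991 genes stayed between 1582 and 2512 when any 1 array was left out, and it was 2377 after quantile normalization, 2418 with arrays centred on their medians, 2059 with dim genes removed, 2465 with array weights, 1907 with a trended prior, 1814 with the acinar covariate and 2181 with every probe set. With all 42 arrays in 1 fit it was 653, with 0 at 7 days, 5 at 14 days and 3429 at 21 days. Without the 5 acinar-rich arrays, a choice made after seeing the data, it was 539, with 2 at 7 days and 48 at 14 days. Array weights gave 1737 at 7 days and 716 at 14 days, and the trended prior gave 219 at 14 days. Leaving out 1 array gave 182 to 1562 at 7 days, 99 to 474 at 14 days and 1257 to 2577 at 21 days. The cause of these shifts was not tested. Median centring moved the share of lower genes to 76.8% over both days, 81.9% at 7 days and 67% at 14 days, against 58.1%, 66.2% and 45.9% without it, and shifted the median of all genes to -0.05. At 21 days quantile normalization gave 49.2% lower, against 40.3%. The interaction called 0 genes under each of these settings. Of 224 named genes called, 0 reversed, 150 lost the call under at least 1 alternative, 119 of them with all 42 arrays, and 45 on leaving out 1 array. Deviations of same-numbered arrays at 7 and 14 days correlated between -0.36 and 0.362. The labels do not say whether these arrays share more than a number, and this was not tested. The fit with a replicate block called 2163 genes, 587 at 7 days and 335 at 14 days. Genes below background limit what these arrays resolve. So does the spread between arrays: the median SE was 0.0873, and on simulated data 71% of genes changed by 0.5 (log2) were recovered.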
